A study of Homo sapiens with 6 samples.

Results

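The ZIC and SALL genes encode zinc finger transcription factors of the early embryo, and the 8 described here were ZIC1, ZIC2, ZIC4, ZIC5, SALL1, SALL2, SALL3 and SALL4, taken by gene symbol from the 27672 genes of the expression table. Their transcripts were measured by RNA sequencing in H9, a human embryonic stem cell line, in 3 libraries of undifferentiated cells at day 0 (hESC) and 3 libraries of neuromesodermal progenitor-like cells at day 3 (NMP-L). The labels described the stem cell cultures as feeder-free, in DEF medium with 30 ng/ml bFGF, a fibroblast growth factor, and 10 ng/ml Noggin, an antagonist of BMP signalling, whereas the NMP-L cells had spent 3 days in N2/B27 medium that held less bFGF, 20 ng/ml, along with the Wnt agonist CHIR99021 at 3 µM. The published methods differed from the labels in both media. They gave another stem cell medium. They also added Noggin and an inhibitor of TGFβ signalling from day 2, under the step towards neural progenitors but before the day 3 of the NMP-L cells. Both conditions came from the same line, with no genetic modification in the labels, so medium, added factors and day changed together and cannot be told apart. Each library held between 19454543 and 23036426 expected counts, and 3 counts in a library corresponded to between 0.13 and 0.154 CPM (counts scaled to a library total of 1000000).

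The ZIC proteins are relatives of the GLI factors, which transduce hedgehog signals, and of the GLIS factors. In vertebrate embryos they act in the epiblast, the neural plate and the dorsal neural tube, and loss of ZIC2 in people leads to holoprosencephaly, a failure of the forebrain to divide. The SALL (spalt-like) proteins carry a short N-terminal stretch that recruits the NuRD histone deacetylase complex, and SALL4 works beside the pluripotency factors in embryonic stem cells. SALL1 is the gene of Townes-Brocks syndrome and is needed for the kidney, SALL2 is the most divergent of the SALL genes, and loss of SALL4 causes the Duane-radial ray syndrome of eye muscles and forelimb.

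Of the 8 genes, 4 changed between the conditions, and they split evenly by direction. ZIC2 and SALL3 rose in the NMP-L cells by 2.16-fold and 1.83-fold, whereas SALL2 and SALL4 fell by factors of 3.48 and 1.63. ZIC5 and SALL1 were expressed in both conditions with overlapping libraries and missed the threshold. ZIC1 and ZIC4 gave at most 7 counts in any library and did not pass the filter on low counts. A gene was called when its adjusted p fell under 0.05 in edgeR's quasi-likelihood test, with the Benjamini-Hochberg adjustment over the 15517 genes that passed the filter. The background in this comparison was high: 55.8% of the tested genes were called, 29.1% as higher and 26.7% as lower in NMP-L cells, so 4 called members of 6 tested is near what the table as a whole gave. The CPM of the libraries did not overlap between conditions for the same 4 genes, against 61.6% of all tested genes. Called with at least a 2-fold change were ZIC2 and SALL2, against 18.6% of the tested genes. The median size of the log2 fold change, whatever its direction, was 0.79 over the 6 tested members and 0.40 over all tested genes.

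These calls were relative to scaling by trimmed means (TMM), under which the median log2 fold change of all tested genes was 0.03. Library size alone moved that median to 0.10 and called ZIC5 and SALL1 as higher as well, giving 4 higher and 2 lower members. Scaling to the counts of GAPDH, which itself fell by 0.55 on the log2 scale (SE 0.08, adjusted p = 0.00014, edgeR), moved it to 0.59, with 87.5% of called genes higher against 52.1% before, and gave 4 higher members and 1 lower. Scaling to HPRT1, whose own log2 fold change was 0.28 (SE 0.12, adjusted p = 0.069, edgeR), moved the median to -0.27, with 25.3% of called genes higher, and left 2 higher and 2 lower. Directions below are therefore relative to the bulk of transcripts.

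The promoters of 3 of the genes that changed were present in the sequence table, and they are shown because the windows of these 3 genes, 2 that rose and 1 that fell, differed in base composition. Each sequence runs 5′ to 3′ on the gene's own strand over 300 bases, from 250 before the transcription start to 50 after it, as annotated by RefSeq on GRCh38.p14. Capitals mark each CpG dinucleotide. ZIC2 lay at chr13:99981534-99981833 on the plus strand, SALL3 at chr18:78979568-78979867 on the plus strand and SALL2 at chr14:21537072-21537371 on the minus strand.
ZIC2: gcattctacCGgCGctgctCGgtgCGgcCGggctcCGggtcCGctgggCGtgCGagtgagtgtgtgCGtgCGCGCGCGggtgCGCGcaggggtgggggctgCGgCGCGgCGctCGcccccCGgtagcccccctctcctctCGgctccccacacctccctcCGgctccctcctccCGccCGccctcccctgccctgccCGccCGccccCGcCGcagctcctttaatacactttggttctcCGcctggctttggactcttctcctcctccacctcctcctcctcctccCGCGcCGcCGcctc
SALL3: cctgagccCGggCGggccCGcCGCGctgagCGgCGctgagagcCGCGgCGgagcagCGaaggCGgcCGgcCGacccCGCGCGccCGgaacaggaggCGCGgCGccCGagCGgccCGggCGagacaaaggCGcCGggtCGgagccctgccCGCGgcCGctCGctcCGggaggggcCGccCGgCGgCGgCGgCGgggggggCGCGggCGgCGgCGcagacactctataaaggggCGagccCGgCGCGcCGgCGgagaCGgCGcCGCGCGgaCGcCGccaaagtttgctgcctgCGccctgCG
SALL2: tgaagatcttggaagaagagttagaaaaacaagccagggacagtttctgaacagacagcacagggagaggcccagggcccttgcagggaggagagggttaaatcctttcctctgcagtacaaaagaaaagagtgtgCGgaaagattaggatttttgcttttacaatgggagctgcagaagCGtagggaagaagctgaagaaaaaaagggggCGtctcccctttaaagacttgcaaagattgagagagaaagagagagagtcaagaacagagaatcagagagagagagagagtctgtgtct
The ZIC2 window was 75% G and C and held 35 CpG dinucleotides, and the SALL3 window was 83% G and C with 59 CpG dinucleotides, a number at percentile 99.9 of the 35116 promoters in the table. The SALL2 window held 3 CpG dinucleotides at 46% G and C, where the median promoter had 14 and 58.7%. A window of ZIC5, which was not called, was close to that of ZIC2, with 70.3% G and C and 33 CpG dinucleotides. The other ZIC5 windows were further from it, with 18 CpG dinucleotides at 64% G and C and 22 at 62%. SALL2 was the only falling gene with a window, so this describes the windows and compares no groups of genes, and the table's start sites were not checked against the reads.

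Short factor motifs were searched on both strands of the 11 promoter windows listed for 6 of the 8 genes, ZIC1, ZIC2, ZIC4, ZIC5, SALL2 and SALL3. The TCF/LEF sequence CTTTGAT was in 0 of the 11 windows and in 2.62% of all windows in the table, the GLI sequence GACCACCCA in 0 and 0.236%, the SOX sequence ATTGTT in 0 and 10.1%, and the octamer ATGCAAAT in 0 and 1.77%. The ETS sequence CCGGAAG occurred once, in a ZIC4 window on the minus strand at -95 from the start, and in 10.3% of all windows. The TATA box sequence TATAAA occurred once, at -28 in the SALL3 window on the plus strand, and in 11.5% of all windows. None of these motifs overlapped another in the windows of the 8 genes. SALL1 and SALL4 had no window in the search.

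ZIC2, a factor of the epiblast and neural plate, stood above ZIC5 in TPM in every library and rose in the NMP-L cells. Its expected counts were 1248, 1174 and 1265 in hESC replicates 1 to 3 and 3125, 2772 and 3441 in NMP-L replicates 1 to 3. The corresponding CPM were 66.7, 60.4 and 66.1 in hESCs and 140.0, 132.0 and 144.0 in NMP-L cells, so every NMP-L library lay above every hESC library. The means were 64.4 ± 3.45 and 139 ± 5.97 CPM (SD, n = 3 each), a log2 fold change of 1.11 (SE 0.08, 95% interval 0.93 to 1.29, adjusted p = 5.7e-07, edgeR quasi-likelihood test). Of all tested genes, 8.3% rose by more. The gene spans chr13:100634038-100639019 on the plus strand of GRCh37 and was called under each of the 16 alternative analyses, with log2 fold changes from 0.81 to 1.67.

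ZIC5, which lies head to head with ZIC2 on the minus strand at chr13:100615218-100624021 (GRCh37) and has been tied to neural crest development, had a smaller estimate. Across hESC replicates 1 to 3 it had 534, 421 and 587 counts, and across NMP-L replicates 662, 669 and 840. In CPM these were 28.5, 21.7 and 30.7 against 29.7, 31.9 and 35.1, so hESC replicate 3 lay above the lowest NMP-L library. The means of 26.9 ± 4.7 and 32.2 ± 2.71 CPM (SD, n = 3 each) gave a log2 fold change of 0.26 (SE 0.13, 95% interval -0.03 to 0.55, adjusted p = 0.11, edgeR), so that any value from no change to 1.46-fold was within the interval. The value rested in part on hESC replicate 2 and was 0.12 without it. ZIC5 was called under 2 of the 16 alternatives, library size only (0.34, adjusted p = 0.046) and scaling to GAPDH (0.83, adjusted p = 0.0024), and turned to -0.05 (adjusted p = 0.85) on scaling to HPRT1, all by edgeR.

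The ratio of ZIC2 to ZIC5 counts within a library does not depend on how the libraries are scaled. Undifferentiated cells gave ratios of 2.34, 2.79 and 2.16 and NMP-L cells 4.72, 4.14 and 4.1, with no overlap. The log2 ratio was higher by 0.84 in NMP-L cells (SE 0.13), with a two-sided exact permutation p of 0.1, the smallest that 3 against 3 libraries allow. The starts of the ZIC2 and ZIC5 annotations are 10017 bases apart.

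ZIC1 and ZIC4, the other head-to-head pair and genes of the dorsal neural tube and cerebellum, were near or under the detection limit. ZIC1 had 2, 2 and 3 counts in hESCs and 4, 7 and 2 in NMP-L cells, which overlap (exact permutation p = 0.6, two-sided, n = 3 each). ZIC4 had 0, 0 and 1 counts in hESCs and 1, 0 and 1 in NMP-L cells (exact permutation p = 1, two-sided, n = 3 each). No fold change is given for either gene, and a difference at this level was not detectable at this depth. Their annotations, chr3:147111209-147228080 on the plus strand for ZIC1 and chr3:147103833-147124596 on the minus strand for ZIC4 (GRCh37), share 13388 bases, and the sources used here do not say whether counting used the strand, so the few reads there could belong to either.

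**Figure D1:**
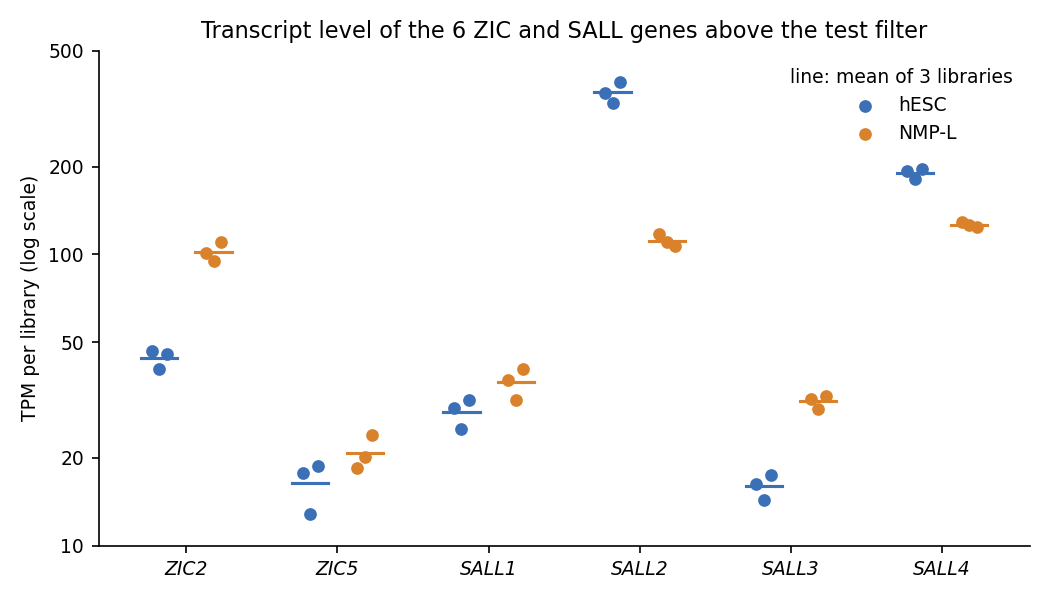
TPM (a level per transcript length, with a total of 1000000 in a library) of each gene in each library on a logarithmic vertical axis, for the 6 genes that passed the filter; points are libraries, blue for hESC and orange for NMP-L, and lines are means of 3. The 3 NMP-L points of ZIC2 (94.8 to 110.0 TPM) and SALL3 (29.5 to 32.7 TPM) lie above all their hESC points, those of SALL2 and SALL4 lie below, and the points of ZIC5 and SALL1 meet or cross.

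SALL2 showed the largest change of the 6 tested genes in either direction. The hESC replicates gave 12980, 12725 and 14562 counts and the NMP-L replicates 4803, 4210 and 4549. The CPM were 693.0, 655.0 and 760.0 against 216.0, 201.0 and 190.0, so the highest NMP-L library was far below the lowest hESC library. The means of 703 ± 53.5 and 202 ± 12.8 CPM (SD, n = 3 each) gave a log2 fold change of -1.80 (SE 0.08, 95% interval -1.98 to -1.62, adjusted p = 1.5e-08, edgeR), and 3.47% of the tested genes fell by more. It was called under each of the 16 alternatives, at -2.10 to -1.24. By mean TPM it ranked 374 among all genes of the table in hESCs and 1410 in NMP-L cells. SALL2 lies at chr14:21989231-22005350 on the minus strand (GRCh37).

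SALL4, the pluripotency-associated SALL gene, also fell. Its counts were 7847, 8095 and 8506 in hESCs and 6115, 5568 and 5866 in NMP-L cells, with CPM of 419.0, 416.0 and 444.0 against 275.0, 266.0 and 245.0. The conditions did not overlap. The means of 427 ± 15.3 and 262 ± 15 CPM (SD, n = 3 each) gave a log2 fold change of -0.70 (SE 0.07, 95% interval -0.87 to -0.54, adjusted p = 9.7e-06, edgeR). It was called under 15 of the 16 alternatives and was -0.15 (adjusted p = 0.11, edgeR) on scaling to GAPDH. In 1 library its expected count was fractional, as RSEM gives where reads match more than 1 place. SALL4 lies at chr20:50398870-50419060 on the minus strand (GRCh37).

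SALL3 rose from a lower level. Its counts were 823, 777 and 916 in hESCs and 1852, 1619 and 1926 in NMP-L cells, and the CPM were 44, 40 and 47.8 against 83.2, 77.2 and 80.5. Every NMP-L library was above every hESC library. The means of 43.9 ± 3.93 and 80.3 ± 2.98 CPM (SD, n = 3 each) gave a log2 fold change of 0.87 (SE 0.09, 95% interval 0.67 to 1.07, adjusted p = 1e-05, edgeR), with 11.5% of tested genes rising more, and the 16 alternatives all called it, at 0.57 to 1.43. SALL3 lies at chr18:76739818-76762677 on the plus strand (GRCh37).

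SALL1 was the SALL gene with the smallest change. Its counts were 1389, 1263 and 1533 in hESCs and 1990, 1611 and 2209 in NMP-L cells, and the CPM were 74.2, 65.0 and 80.0 against 89.4, 76.8 and 92.3. NMP-L replicate 2 lay below hESC replicate 3, so the conditions overlapped. The means of 73.1 ± 7.6 and 86.2 ± 8.23 CPM (SD, n = 3 each) gave a log2 fold change of 0.24 (SE 0.10, 95% interval 0.01 to 0.46, adjusted p = 0.068, edgeR). Of the 16 alternatives 4 called it: library size only (0.31, adjusted p = 0.023, edgeR), scaling to GAPDH (0.80, adjusted p = 0.00092, edgeR), limma on log2(TPM + 0.1) (0.33, adjusted p = 0.04) and leaving out NMP-L replicate 2 (0.32, adjusted p = 0.039, edgeR). Scaling to HPRT1 turned it to -0.07 (adjusted p = 0.79, edgeR). SALL1 lies at chr16:51169893-51186245 on the minus strand (GRCh37).

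**Figure D2:**
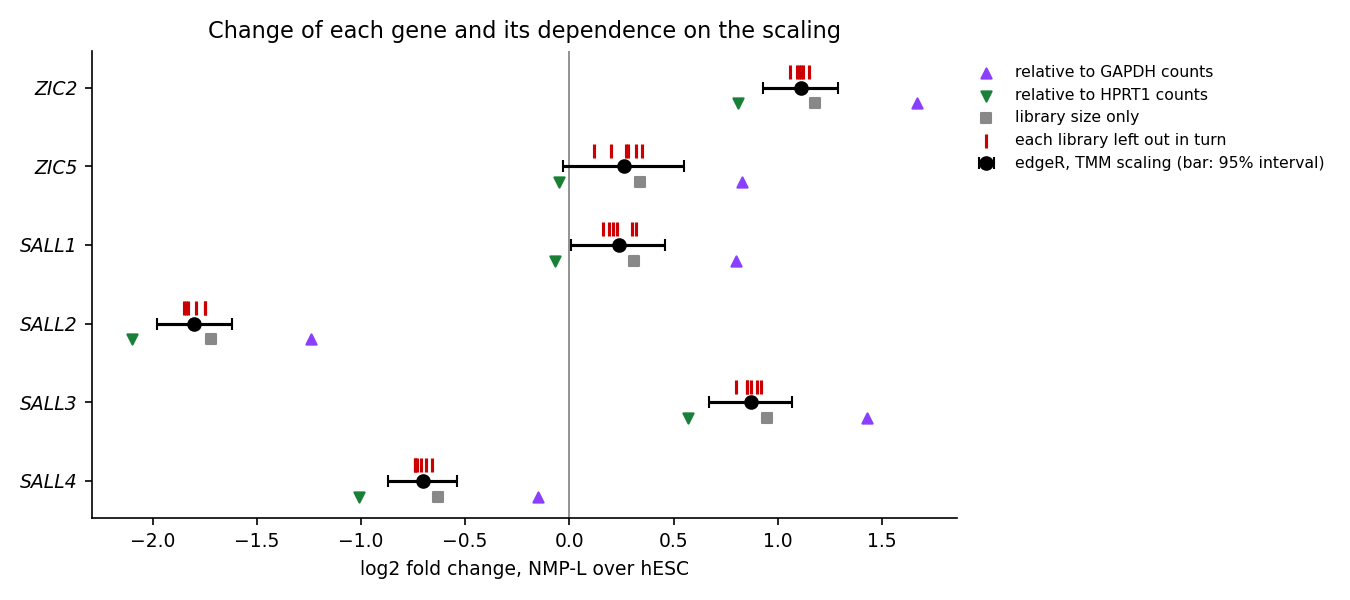
Horizontal axis, log2 fold change of NMP-L over hESC for each of the 6 tested genes; black points are the edgeR estimates with 95% intervals, red ticks each library left out in turn, and the other markers the scalings to library size, GAPDH and HPRT1. The markers of ZIC2, SALL2 and SALL3 stay on their side of 0 under every scaling drawn, SALL4 comes to -0.15 under GAPDH, and ZIC5 and SALL1 cross 0 under HPRT1.

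hESC replicate 2 had the lowest CPM of its condition for all 6 tested members, whereas 36.8% of all tested genes were lowest in that library. Without it the same 4 genes were called, in the same directions. The highest hESC value came from replicate 3 for 5 of the 6, against 26.9% of all tested genes. The largest gap was that of ZIC5, described above.

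**Figure D3:**
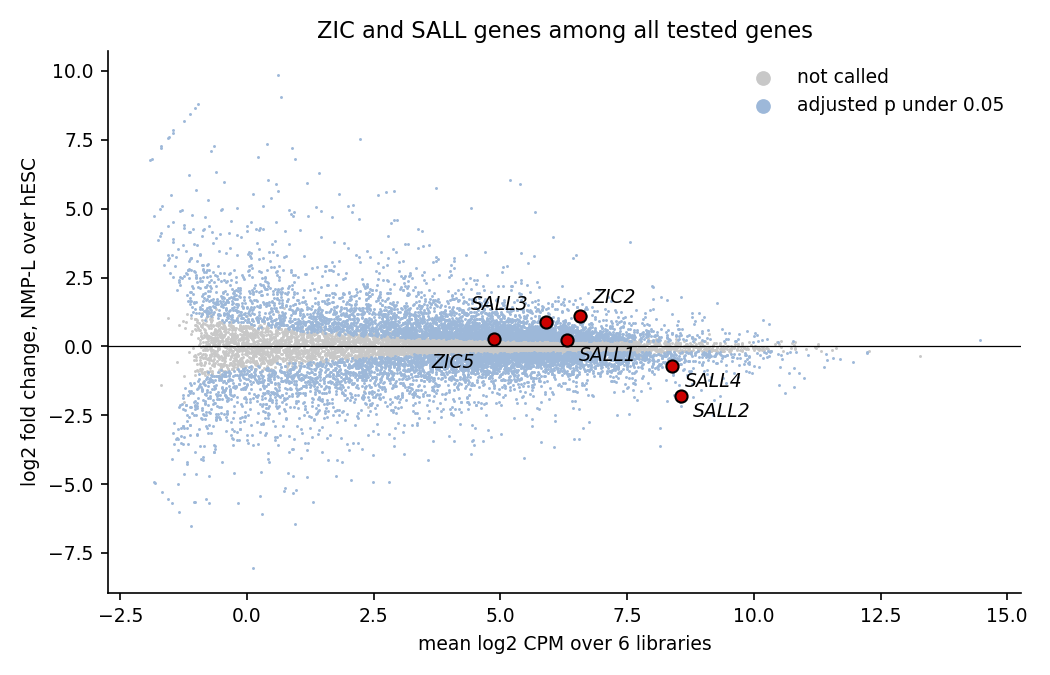
Each dot is 1 of the 15517 tested genes, with the mean log2 CPM over 6 libraries on the horizontal axis and the log2 fold change of NMP-L over hESC on the vertical axis; blue dots are called, grey are not, and red circles are the 6 members. Along the horizontal axis the 6 run from ZIC5, the least abundant of them, to SALL2, the most abundant. On the vertical axis SALL2 at -1.80 and ZIC2 at 1.11 are their extremes.

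The changes reordered the SALL genes by level. On the TPM scale, which allows levels of different genes to be compared, the order in hESCs was SALL2 (360 ± 30.4 TPM), SALL4 (191 ± 7.65), ZIC2 (44.1 ± 3.18), SALL1 (28.8 ± 3.38), ZIC5 (16.4 ± 3.14) and SALL3 (16.0 ± 1.64; SD, n = 3 throughout), where the libraries of ZIC5 and SALL3 overlapped. In NMP-L cells the order was SALL4 (126 ± 2.35 TPM), SALL2 (111 ± 4.99), ZIC2 (102 ± 7.52), SALL1 (36.3 ± 4.39), SALL3 (31.3 ± 1.66) and ZIC5 (20.8 ± 2.8). There the ranges of SALL2 and ZIC2 overlapped, as did those of SALL1 and SALL3. ZIC1 and ZIC4 stood below 0.15 TPM in every library.

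The summed TPM of the 4 SALL genes went from 596 ± 42.8 in hESCs to 305 ± 8.69 in NMP-L cells (SD, n = 3 each), and its range of 552 to 638 did not meet that of 297 to 314. SALL2 supplied 60.4 ± 0.812% of it in hESCs and 36.5 ± 1.13% in NMP-L cells. The share of SALL4 went from 32.1 ± 1.05% to 41.4 ± 0.824% although its level fell, that of SALL1 from 4.82 ± 0.245% to 11.9 ± 1.31%, and that of SALL3 from 2.69 ± 0.0888% to 10.3 ± 0.428% (SD, n = 3 each). Shares of a sum move together, since a fall of the most abundant gene raises the share of the rest.

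**Figure D4:**
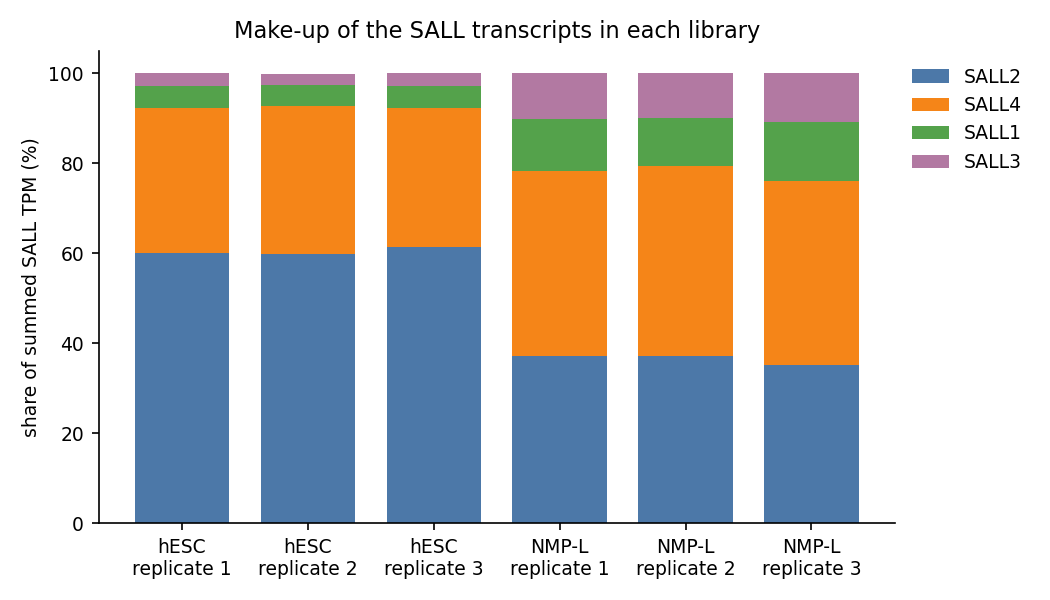
Stacked bars, 1 for each library, of the percentage of the summed SALL TPM that each SALL gene contributed, from 0 to 100%. SALL2 fills 59.8 to 61.3% of the hESC bars and 35.2 to 37.2% of the NMP-L bars, and SALL1 and SALL3 together take a visibly larger part in NMP-L cells.

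Ratios between SALL genes within a library, chosen after the values had been seen, showed the same without any scaling between libraries. These ratios share the same genes and restate the fold changes above, so they are not separate results. The SALL2 to SALL4 count ratio was 1.65, 1.57 and 1.71 in hESCs and 0.785, 0.756 and 0.775 in NMP-L cells, a log2 difference of -1.09 (SE 0.04). SALL2 thus fell further than SALL4 in every pairing of libraries. The SALL1 to SALL3 ratio was 1.69, 1.63 and 1.67 against 1.07, 0.995 and 1.15, a log2 difference of -0.63 (SE 0.06). The log2 ratio of SALL2 to SALL1 differed by -2.03 (SE 0.11) and that of SALL2 to SALL3 by -2.67 (SE 0.05). For SALL4 the difference was -0.94 against SALL1 (SE 0.13) and -1.58 against SALL3 (SE 0.07). In each of these 6 ratios, and in that of ZIC2 to ZIC5, the conditions did not overlap, and each had an exact permutation p of 0.1 (two-sided, n = 3 each; 0.11 after the Benjamini-Hochberg adjustment over 8 ratios, the eighth being ZIC1 to ZIC4 with p = 1). No p under 0.1 is possible with 3 libraries a condition.

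**Figure D5:**
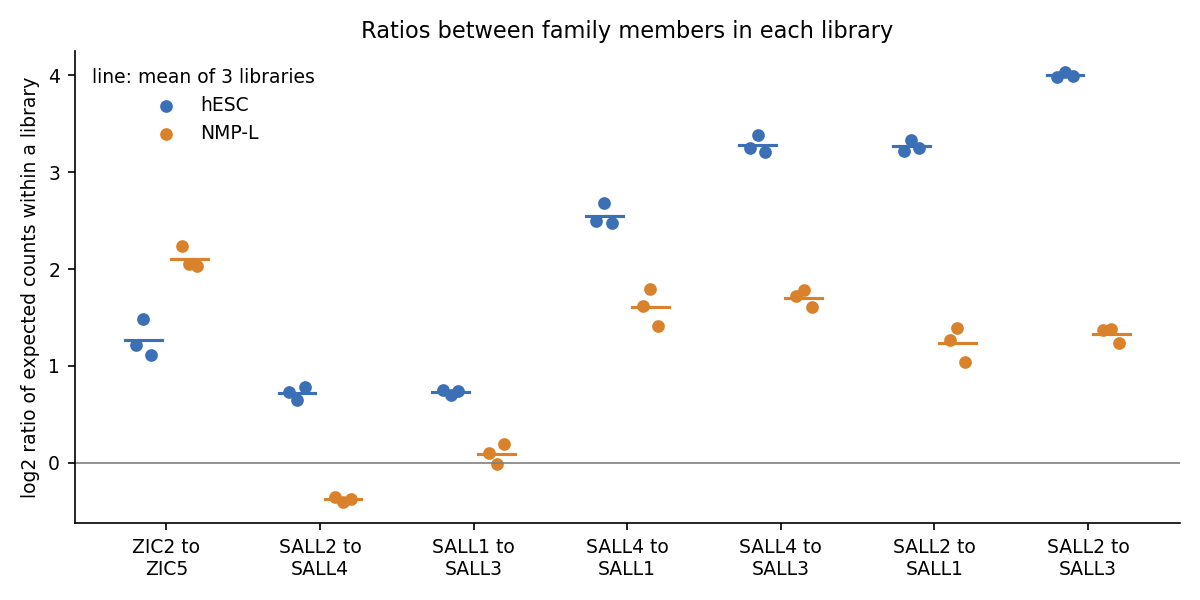
Vertical axis, log2 ratio of the expected counts of 2 genes in the same library, for 7 pairs; points are libraries, blue for hESC and orange for NMP-L, and lines are means of 3. The ZIC2 to ZIC5 ratio is higher in NMP-L libraries, the 6 SALL ratios are lower, and the SALL2 to SALL4 points pass from above 0 to below it.

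The genes whose profile over the 6 libraries was most like that of ZIC2 were PIEZO2, a mechanically gated ion channel (Pearson r = 0.9996), INSIG1, a brake on sterol synthesis (0.9994), and ALG9, a mannosyltransferase of N-glycan assembly (0.9992). For SALL2 they were PLPP3, a lipid phosphatase (0.9999), COL1A2, a collagen chain (0.9995), and SFRP5, a secreted Wnt antagonist (0.9995). These are descriptions over 6 libraries in 2 conditions: 1960 of the other 15516 tested genes (12.6%) had r over 0.95 with ZIC2 and 2071 (13.3%) with SALL2.

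Identity genes matched the labels in part. POU5F1, the central pluripotency factor, fell from 1326 ± 71.9 to 703 ± 41 CPM (log2 fold change -0.92, SE 0.07, adjusted p = 1.2e-06, edgeR; SD, n = 3 each) and so was still abundant in NMP-L cells. T (brachyury) had 0, 0 and 2 counts in hESCs and 537, 293 and 629 in NMP-L cells, and CDX2, a caudal homeobox factor, 0, 1 and 0 against 522, 326 and 607. SOX2, which neuromesodermal progenitors co-express with T, gave a log2 fold change of 0.06 (SE 0.08, adjusted p = 0.53, edgeR). In bulk samples fewer cells of a type and less RNA per cell cannot be told apart, and this holds for each gene described here.

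Among the genes related to the 8 members, the GLI and GLIS list had 4 of 6 genes tested, with 0 higher and 2 lower: GLI1, an output gene of hedgehog signalling (-0.67, SE 0.11, adjusted p = 0.00021, edgeR) and GLI3, mainly a repressor of it (-0.47, SE 0.10, adjusted p = 0.0016, edgeR), though on scaling to GAPDH 2 genes were higher, 0 lower, GLI3 stood at 0.09 and GLI1 was no longer called (-0.12, adjusted p = 0.34). The list's median log2 fold change was -0.35, beside 0.03 over all tested genes. Of 15 NuRD subunits, the partners of the SALL proteins, 15 were tested, 1 was higher and 4 were lower, with a median of -0.02. RBBP7, a histone-binding subunit, was the one that rose (0.39, SE 0.07, adjusted p = 0.00045, edgeR). MTA3, a scaffold subunit, fell by 0.98 on the log2 scale (SE 0.07, adjusted p = 6.7e-07, edgeR) and CDK2AP1 by 0.85 (SE 0.13, adjusted p = 0.0002, edgeR). Their split depended on the scaling, with 9 higher and 1 lower relative to GAPDH and 0 higher and 7 lower relative to HPRT1. CDK2AP1 was no longer called relative to GAPDH (-0.28, adjusted p = 0.23, edgeR), nor RBBP7 relative to HPRT1 (0.09, adjusted p = 0.72, edgeR). Without hESC replicate 2 the higher subunits numbered 2.

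The pluripotency list, with which SALL4 is known to act, had 11 of 12 genes tested, 1 higher and 8 lower, and a median of -0.70, beside 0.03 over all tested genes. NANOG (-2.59, SE 0.09, adjusted p = 2.9e-09, edgeR) and PRDM14 (-1.68, SE 0.11, adjusted p = 2e-07, edgeR), both factors of the pluripotency network, fell the most, and TFCP2L1, a factor of the naive state, was the gene that rose (1.59, SE 0.09, adjusted p = 9.3e-08, edgeR). Relative to GAPDH this list had 3 higher and 5 lower. Of 7 heart and limb genes linked to SALL4, 0 passed the filter and 6 were at or under 3 counts in every library.

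Of 14 early neural plate genes, among which ZIC2 is usually found, 11 were tested, 5 were higher and 4 lower, with a median of 0.06. SOX1, the early neural factor, rose from 0.417 ± 0.233 to 11.2 ± 1.69 CPM (SD, n = 3 each; adjusted p = 7.6e-08, edgeR), whereas OTX2, of forebrain and midbrain, fell from 18 ± 0.625 to 8.33 ± 0.683 CPM (SD, n = 3 each; adjusted p = 8.1e-06, edgeR). The summed TPM of the list was 258.0 to 287.0 in hESCs and 298.0 to 358.0 in NMP-L cells. With at least 10 counts required in every library, 3 of the list were higher and 3 lower. Of 12 neural plate border and crest markers, the tissue in which ZIC1 and ZIC5 are known, 7 were tested, 4 were higher and 2 lower, with a median of 1.53. The requirement of 10 counts in every library left 2 higher and 2 lower. GBX2 rose from 2.54 ± 0.541 to 46.9 ± 5.91 CPM (SD, n = 3 each; adjusted p = 4.4e-09, edgeR) and FOXD3, of crest and of pluripotent cells, fell from 21.2 ± 2.47 to 0.726 ± 0.093 CPM (SD, n = 3 each; adjusted p = 2.9e-09, edgeR). PAX3 and TFAP2B of this list were at or under 3 counts in every library, as ZIC4 was.

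Markers of cell types that a day 3 culture could hold moved as follows beside the ZIC and SALL genes, and their part in those results was not tested. The neuromesodermal and caudal epiblast list had 12 of 13 genes tested, 10 higher and 2 lower (CYP26A1 and FGF17), with a median of 2.92, or 2.63 with 3 genes under the detection limit in 1 condition set at that limit, and a summed TPM of 69.9 to 81.4 in hESCs and 333.0 to 399.0 in NMP-L cells. Paraxial mesoderm markers had 6 of 10 tested, 2 higher and 3 lower with a median of -0.53. The summed TPM of that list was 37.9 to 46.3 against 31.1 to 35.0, and MEOX1 was at or under 3 counts throughout. With at least 10 counts required in every library, the neuromesodermal list had 4 higher and 0 lower. The paraxial mesoderm list then had 1 higher and 3 lower. Endoderm markers had 2 of 8 tested and 1 higher, FOXA2, with a median of 3.84 over those 2. The summed TPM of this list was 2.35 to 3.57 against 14.6 to 26.8, while SOX17 and HNF4A were at or under 3 counts in every library. The count of higher endoderm markers was 2 without hESC replicate 2, without NMP-L replicate 1, relative to GAPDH and with no filter, and 0 under the stricter filter of 10 counts per library. Neuron markers had 7 of 8 tested, 1 higher and 3 lower with a median of -0.22 and a summed TPM of 293.0 to 321.0 against 186.0 to 203.0, and NEUROD1 was at or under 3 counts throughout.

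The 8 genes lie at 6 loci, since ZIC1 and ZIC4 share a locus and so do ZIC2 and ZIC5. The nearest protein-coding genes, a pair on each side of each locus, numbered 24, of which 17 were tested, 11 were higher and 3 lower in NMP-L cells, beside 29.1% higher and 26.7% lower over all tested genes. Beside ZIC2 and ZIC5, PCCA, a mitochondrial carboxylase subunit at 102.0 kb, rose (0.67, SE 0.08, adjusted p = 3e-05, edgeR). CLYBL, at 53.5 kb on the other side, was called at 0.28 (SE 0.11, adjusted p = 0.046, edgeR), but not without hESC replicate 1 (0.25), hESC replicate 3 (0.21), NMP-L replicate 1 (0.26) or NMP-L replicate 2 (0.28). Its call was also lost with RLE (adjusted p = 0.066, edgeR) and upper-quartile scaling (adjusted p = 0.087, edgeR), with no filter (adjusted p = 0.056, edgeR), with DESeq2 (adjusted p = 0.11) and with the replicate block (adjusted p = 0.11, edgeR). TM9SF2 beyond it was not called (0.05, SE 0.10, adjusted p = 0.67). METTL3, the RNA methyltransferase 9.75 kb from SALL2, fell by 0.92 (SE 0.09, adjusted p = 4.7e-06, edgeR), and TOX4, the next gene on that side, rose by 0.30 (SE 0.08, adjusted p = 0.0075, edgeR). Around SALL4, which fell, ATP9A (0.41, SE 0.10, adjusted p = 0.0045, edgeR), NFATC2 (1.59, SE 0.21, adjusted p = 5.7e-05, edgeR) and ZFP64 (1.60, SE 0.11, adjusted p = 2.8e-07, edgeR) were higher. ATP9B (0.89, SE 0.11, adjusted p = 3.3e-05, edgeR) and NFATC1 (0.44, SE 0.11, adjusted p = 0.0042, edgeR), downstream of SALL3, were higher as SALL3 was. TOX3 beside SALL1 (0.31, SE 0.11, adjusted p = 0.03, edgeR) and MBP beside SALL3 (0.32, SE 0.11, adjusted p = 0.031, edgeR) were called narrowly. Both calls were lost with the replicate block (adjusted p = 0.068 and 0.071, edgeR) and without some single libraries. Relative to HPRT1, the calls of PCCA (0.37), CLYBL (-0.01), TOX3 (0.01), TOX4 (0.00), MBP (0.02), ATP9A (0.12) and NFATC1 (0.14) were lost. The number of higher neighbours thus depended on the scaling. Neighbours of a changed member moved with it at some loci and against it at others.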

How the data were processed

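RNA from 6 H9 libraries, 3 hESC and 3 NMP-L, had been made into libraries with a polyA kit and sequenced as single-end reads of 76 bp. The authors deposited RSEM expected counts (estimated counts per gene, which need not be whole) and TPM values for each gene, on hg19, and per the labels the submitters' processing notes name cutadapt 1.9.1, STAR 2.5.2a, RSEM 1.3.0 and DESeq2 1.12.3 with no settings. Reads that match several genes were thus shared by estimation, which bears on genes with close copies. Groups came from the sample titles. The labels call the replicates biological, and nothing says whether they were separate differentiations, so p-values measure only the spread between these samples.

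Counts were rounded, filtered with filterByExpr (minimum count 10), scaled by TMM and tested with edgeR 4.0.16 in R 4.3.3 (glmQLFit and glmQLFTest, condition only), with Benjamini-Hochberg adjustment over all tested genes and a threshold of 0.05. The SE was the log2 fold change divided by the root of F. CPM used TMM library sizes. A count of 3 was taken as the detection limit. The intervals of the log2 fold changes came from the quasi-likelihood fit, so they include the spread between libraries of a condition. The detection limit is a fixed count and takes no account of that spread. Ratios within a library used a pseudocount of 0.5 and were compared by a two-sided exact permutation test. Alternatives used RLE, upper-quartile, library size, GAPDH and HPRT1 scaling, DESeq2 1.42.0, limma 3.58.1 on log2(TPM + 0.1), other filters, a replicate block and each library left out. The fit was tested on simulated data.

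The members and the gene lists were chosen with earlier results of these data known. All members were described, with, for the most raised and most lowered called member, the 3 genes most correlated with it. List genes were named only among the 2 largest called rises or falls of a list, besides POU5F1, SOX2, GAPDH and HPRT1 as checks and genes at the detection limit. The 2 nearest protein-coding genes on each side came from GENCODE 44 on GRCh37, and not all are named. Promoters were RefSeq windows on GRCh38.p14, and 6 of the 8 genes matched. Long non-coding RNAs that overlap the loci were not analysed here.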

Additional observations from a re-analysis of the deposited data

How the results depend on the processing

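ZIC2, SALL2 and SALL3 kept their direction and their call under all 16 alternatives. The number of called members was 4 of 6 tested and ranged from 4 to 6. With library size only there were 4 higher, and with GAPDH scaling 4 higher and 1 lower. HPRT1 scaling reversed ZIC5 to -0.05, SALL1 to -0.07, CLYBL to -0.01 and TM9SF2 to -0.24, and GAPDH scaling reversed GLI3 to 0.09. These scalings shift all genes together by construction. Leaving out 1 library at a time gave 4 to 5 called members, the fifth being SALL1 without NMP-L replicate 2, and put TM9SF2 between -0.01 and 0.13. Over the same omissions the ZIC2 to ZIC5 log2 ratio stayed between 0.76 and 0.94, whereas that of ZIC1 to ZIC4 ran from -0.79 to 0.79, at 0 to 7 counts a gene. Of 59 single genes followed, 38 kept direction and call in each alternative that tested them. ZIC1 and ZIC4 were fitted only without the filter, and some low genes dropped out under the stricter filter.

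Same-numbered libraries of the conditions did not deviate together (correlations of -0.37, -0.06 and -0.13). Differently numbered libraries gave -0.17 to 0.27. With so few libraries a condition, this cannot show whether same-numbered libraries came from the same experiment. With a replicate block 4 members were called, 2 higher and 2 lower, and 7560 genes in all against 8653 without it. Genes called over the 10 related lists numbered 53 (52 with the replicate block). Over all tested genes 55.8% were called. The 53 is a count and not a share, from lists chosen with earlier results known, so it was not compared with that percentage. Under the alternatives the lowest count, 37, came with at least 10 counts in every library and the highest, 59, with no filter. Both settings change which genes are tested. Depth limits ZIC1 and ZIC4 most.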
